A study of Arabidopsis thaliana with 4 samples.

Results

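The genes described here are 99 protein-coding genes of Arabidopsis thaliana that carry no name in the array annotation beyond their locus identifier and that gave a lower signal in vip3 mutants than in wild type (WT). They were chosen by their signals in the same arrays that are described below. On every WT array the signal was at least 100, and the lower WT signal was at least 1.7 times the higher vip3 signal. The 6 loci AT1G52100, AT3G16530, AT1G31690, AT4G30650, AT4G12490 and AT4G12500, read by 7 probe sets that met the same thresholds, were left out by name. The 99 genes were read by 99 probe sets, of 22746 on the array outside its controls. Probe sets named by the locus of a single protein-coding gene numbered 10897, for 10763 genes, and 13350 genes in all had a probe set named for them alone. Because the thresholds used all 4 arrays, the gap between the genotypes is a property of the selection, and it is described here with no test. Both thresholds were met by 259 probe sets in all, of which 128 had no single gene symbol, 24 had a symbol of another form and 1 read a locus that is not protein coding. The mirrored thresholds found 96 locus-named genes with higher signals in vip3.

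RNA came from shoots of 14-d-old seedlings grown on soil, with 2 ATH1 arrays for vip3 and 2 for WT. The vip3 plants carried a null allele of VIP3, which encodes a WD-repeat subunit of the plant Paf1 complex (Paf1C), and WT plants served as the control. Each array held a pool of 3 independently derived samples with more than 100 plants in each. The labels number the arrays of a genotype 1 and 2 but do not tie the pools to growth batches, so that the spread given here is that between pools, which may be technical. No probe set was named for VIP3 alone, so that the labels were not checked on the mutated gene. In whole shoots, fewer cells of a type and less RNA per cell cannot be told apart.

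Paf1C travels with RNA polymerase II during elongation and is required, as shown in yeast, for methylation of histone H3 at sites typical of active genes. In Arabidopsis it is known for keeping the flowering repressor FLC active, and its loss leads to early flowering. Many plant genes known only by a locus belong to large families of enzymes, wall proteins or secreted peptides, and the families given below are background knowledge rather than part of the deposited files. Such a family gives the type of protein, not a function shown for the gene itself.

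Values are signals of the MAS5 software in arbitrary units, which can be compared between arrays for a probe set but not between probe sets as amounts of RNA. In each sentence replicate 1 stands before replicate 2. Across the 99 genes the mean signal was between 14.45 and 7223 in vip3 (median 212) and between 112 and 13139.5 in WT (median 512). The mean in vip3 was between 12.3% and 55.9% of the mean in WT, with a median of 44.8%. Fitted log2 fold changes of vip3 over WT ran from -3.15 to -0.84 with a median of -1.15, where the median of all 22746 probe sets was 0.00 and their quartiles were -0.29 and 0.30. Standard errors (SE) lay between 0.07 and 0.72 with a median of 0.15. Most of the genes therefore sat near the bound that chose them. The ratio of the lower WT signal to the higher vip3 signal was under 2 in 60 genes, at least 2 in 39, at least 3 in 7 and at least 5 in 2.

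**Figure D1:**
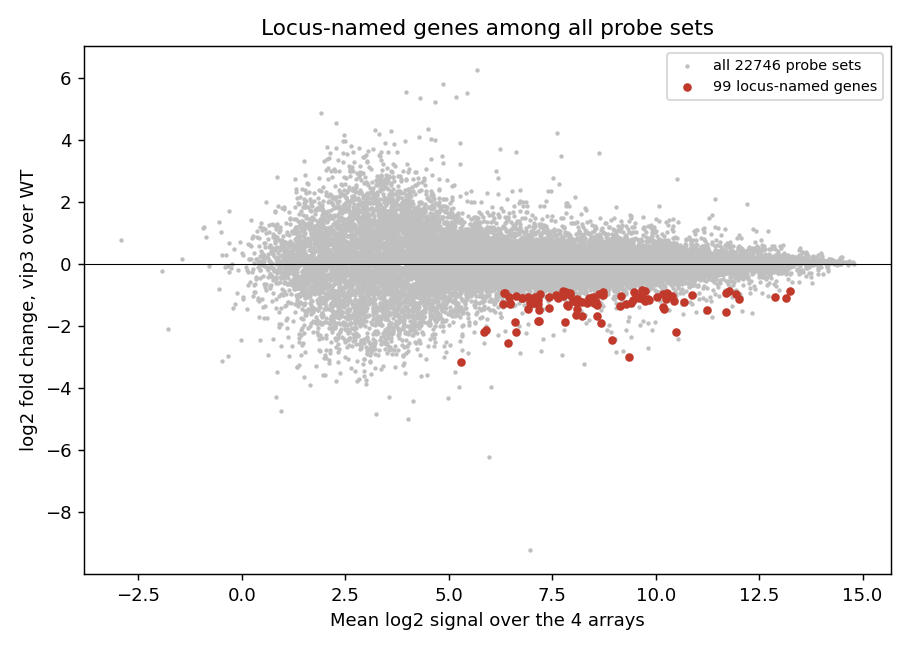
The log2 fold change of vip3 over WT (vertical axis) is plotted against the mean log2 signal over the 4 arrays (horizontal axis) for all 22746 probe sets in grey and the 99 locus-named genes in red. The 99 genes lie between -3.15 and -0.84, and the grey cloud widens toward low signals.

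In the limma fit over the whole array, 92 of the 99 genes were lower in vip3 at an adjusted p under 0.05, where 5.07% of all probe sets were called lower. At the thresholds named in the study's methods, p under 0.001 and a 2-fold change, 62 of the genes passed. Of all probe sets 0.805% did so in this direction. The study set these thresholds on signals from GCRMA, another normalization, and not on the MAS5 signals used here. Its own gene counts are therefore not matched by these. The rule itself took 1.67% of the 5943 locus-named probe sets whose WT signals reached the minimum. Nothing is read from these shares, since the rule and the fit used the same contrast. The same holds for the counts of calls given below for each group of families, since 92 of the 99 genes were called in all. Of the 92 calls, 54 were kept when vip3 replicate 1 was left out of the fit, and 53 were kept in the absence of vip3 replicate 2. With a constant prior variance limma called 0 of the 99 genes, of which 98 had an unadjusted p under 0.05. The 7 genes not called lower were AT2G38465, AT5G41900, AT1G67330, AT2G15830, AT5G23460, AT1G10990 and AT3G61160. All 7 belonged to the 19 genes with a mean WT signal under 200, and all 35 genes with a mean WT signal over 1000 were called.

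By the ratio of the lower WT to the higher vip3 signal, the widest gap was that of AT1G19960, to which no family is given here. Its signals were 250.3 and 213 in vip3, against 1827 and 1850.5 in WT, a log2 fold change of -2.99 ± 0.10 (SE). Both vip3 arrays were far below both WT arrays, and the arrays of a genotype were close. AT3G23550, which encodes a transporter of the MATE family, a family that exports small organic molecules, gave low signals. It gave 8.6 and 20.3 in vip3, against 129.7 and 105 in WT, and its log2 fold change of -3.15 ± 0.59 shrank to -2.15 once 16 was added to every signal before the log was taken. The 2 vip3 signals of this gene lay near the bottom of the range, where MAS5 values have large relative errors. These 2 genes alone had a ratio of at least 5 between the lower WT and the higher vip3 signal.

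**Figure D2:**
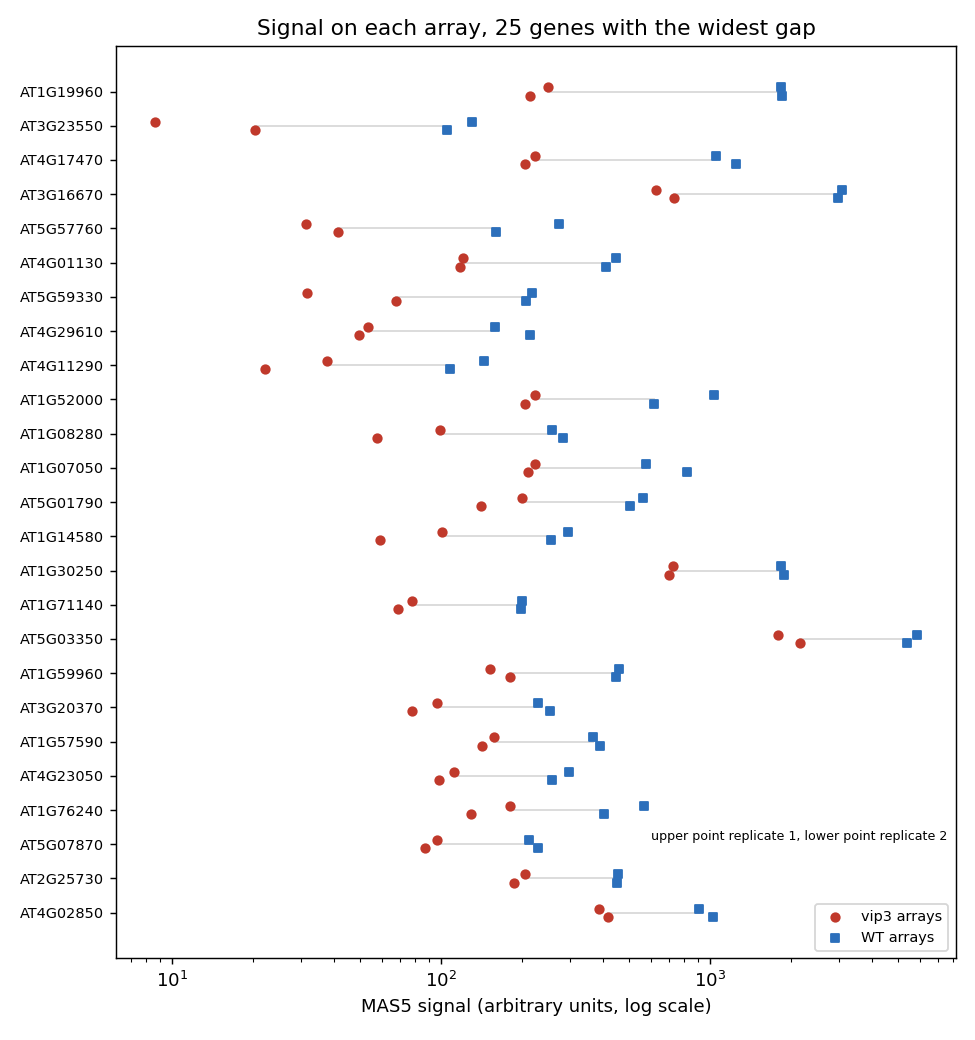
MAS5 signal on each array (horizontal, log scale, arbitrary units) for the 25 genes with the widest gap, with vip3 arrays as red circles and WT arrays as blue squares and the grey line joining the higher vip3 to the lower WT signal. AT1G19960 is at the top with 250.3 and 213 in vip3 and 1827 and 1850.5 in WT, and the gap narrows down the page to AT4G02850.

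Families grouped here under lipids and the plant surface held 12 genes, and 11 of the 12 were called lower. Their ratios were between 1.7 and 4.73, with a median log2 fold change of -1.20. The group rests on family alone and shows no role in lipid metabolism for a gene. AT4G17470, an alpha/beta hydrolase gene, had 223 and 204 in vip3, against 1054 and 1244 in WT, so that its vip3 mean was 18.6% of the WT mean. The arrays of each genotype lay within 1.3-fold of each other. AT4G17480, the next gene in order, had 122.5 and 56.5 in vip3, against 107 and 152 in WT, and the genotypes overlapped. The other hydrolase gene, AT5G41900, had 12 and 61.2 in vip3, against 112 and 135 in WT, and its vip3 arrays differed 5.1-fold, the widest difference between arrays of a genotype among the 99 genes.

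GDSL lipases are secreted hydrolases of lipid esters, and 4 of their genes were among the 99. AT4G01130 gave 120.3 and 117 in vip3, against 447 and 411 in WT. AT4G28780 gave 693 and 754 in vip3, against 1514 and 1515 in WT. In both the arrays of a genotype were close. AT3G14220 gave 919 and 983 in vip3, against 2028 and 1819 in WT, and AT2G03980 gave 656 and 619 in vip3, against 1198 and 1118 in WT. In none of the 4 did the vip3 arrays differ by more than 1.3-fold. The vip3 mean was 27.7% of WT for AT4G01130 and 55% for AT2G03980. Lipid-transfer proteins are small secreted proteins that carry lipids between membranes or to the cuticle, and they too contributed 4 genes. AT5G59330 had 31.7 and 67.8 in vip3, against 217 and 206 in WT. AT5G01870 had 118 and 182 in vip3, against 353 and 380.3 in WT. Both were unequal between the vip3 arrays, with replicate 2 higher. For AT4G22490 the signals were 653 and 584.5 in vip3, against 1456 and 1273 in WT. For AT5G48490 they were 2582 and 2608 in vip3, against 4669 and 4785 in WT. These arrays were even within each genotype. Acyltransferases of the HXXXD type, which join acyl groups to alcohols or amines, were represented by AT5G07870 (96.7 and 86.9 in vip3, against 212 and 228 in WT) and by AT4G13840, which the gene table also lists as CER26. CER26 acts in the elongation of very long chain fatty acids for the leaf wax. Its signals were 514.5 and 496 in vip3, against 1126 and 989 in WT, or 47.8% of the WT mean.

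Cell wall families made up 11 genes, with ratios from 1.79 to 4.09 and a median log2 fold change of -1.24, and 10 were called lower. The widest gap was that of AT3G16670, which encodes a small secreted protein of the pollen-allergen and extensin type. It had 629 and 731 in vip3, against 3097.5 and 2992.5 in WT, a log2 fold change of -2.17 ± 0.09. AT1G08280, listed in the gene table as GALT29A, encodes a galactosyltransferase that builds the sugar chains of arabinogalactan proteins. It had 98.6 and 57.9 in vip3, against 259 and 284 in WT, and its vip3 arrays differed by more than its WT arrays. Pectin is secreted in a methylated form, is demethylated in the wall by pectin methylesterases, and these are held back by proteinaceous inhibitors. Genes of 3 such inhibitors were among the 99. AT5G62360 had 1000.5 and 1174 in vip3, against 2444 and 2540 in WT. AT1G23205 had 259 and 216 in vip3, against 549 and 569.9 in WT. AT3G47380 had 166 and 216 in vip3, against 439.9 and 416 in WT. In all 3 the lower WT signal was close to or above 2 times the higher vip3 signal. A pectin methylesterase gene, AT5G64640, was lower as well, with 104 and 74.5 in vip3, against 204.5 and 214 in WT. AT1G57590, a pectin acetylesterase gene, had 157 and 141.5 in vip3, against 365 and 390.2 in WT. The vip3 means of these pectin genes were at 39.5% to 44.6% of their WT means. The remaining genes of this kind were AT2G05540, which encodes a glycine-rich protein, AT1G74680, an exostosin-type glycosyltransferase gene, AT5G11420, a DUF642 protein gene, and AT1G67330, a DUF579 protein gene. AT5G11420 was even within each genotype, with 2333 and 2441 in vip3, against 4802 and 4359 in WT, and AT1G74680 was not, with 223 and 200.2 in vip3, against 626 and 398 in WT.

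Proteins of types known from plant defence came to 9 genes, and all 9 were called lower, where 92 of the 99 genes were. Their ratios ran from 1.7 to 2.87, with a median log2 fold change of -1.13. Class III peroxidases, which oxidise phenolic compounds in the wall, were represented by a dim gene, AT4G11290, with 37.7 and 22.2 in vip3, against 144 and 108 in WT, and by AT5G64120 (PRX71), with 164.5 and 183 in vip3, against 338 and 348 in WT. For AT4G11290 the log2 fold change of -2.11 became -1.64 with 16 added to the signals. Of the peroxidase loci just before PRX71 in gene order, AT5G64110 missed the WT minimum, with 48.8 and 33 in vip3, against 97.5 and 127.5 in WT, and AT5G64100 overlapped between the genotypes. Lectins bind sugars, and their genes here were AT1G52000 of the jacalin type and AT5G03350 of the legume type. AT1G52000 had 223.5 and 205 in vip3, against 1028 and 617 in WT, with uneven WT arrays, and AT5G03350 had 1779 and 2155 in vip3, against 5882 and 5389.5 in WT. Antimicrobial peptides of the thionin type (AT1G66100, 5449 and 4976 in vip3, against 10787 and 10944 in WT) and of the defensin-like type (AT3G05730, 2602 and 3039.8 in vip3, against 6107 and 6210.4 in WT) were even within each genotype. Their vip3 means, 48% and 45.8% of the WT means, were close to the median of the 99 genes. AT5G44400, a berberine-bridge-enzyme-like oxidase gene, AT4G25780, a CAP protein gene, and AT1G20030, a thaumatin gene, had vip3 means of 46.7%, 44.8% and 55.9% of their WT means.

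Other enzymes accounted for 12 genes, all called lower, with ratios from 1.7 to 2.98 and a median log2 fold change of -1.16. AT4G29610 belongs to the cytidine deaminase family, known for pyrimidine salvage, and had 53.2 and 49.4 in vip3, against 159 and 213 in WT. AT1G59960, an aldo-keto reductase gene, had 152 and 181 in vip3, against 458 and 445 in WT. AT4G02850, whose product resembles the bacterial PhzF proteins, had 387 and 418 in vip3, against 911.5 and 1024.5 in WT. In each of these 3 genes the groups were separated by a ratio over 2. AT4G24350 (phosphorylase type), AT3G43670 (copper amine oxidase, an enzyme that oxidises polyamines), AT3G56060 (glucose-methanol-choline oxidoreductase) and AT1G13750 (purple acid phosphatase) had vip3 means between 39.6% and 47.2% of WT. AT3G43670 had 269.8 and 224 in vip3, against 655 and 558 in WT, and AT3G56060 had 493 and 389 in vip3, against 1102 and 973.5 in WT. AT5G19110 (aspartyl protease), AT1G04040 (acid phosphatase of the HAD superfamily), AT3G05350 (metallopeptidase), AT5G11720 (alpha-glucosidase type) and AT3G61610 (galactose mutarotase type) had vip3 means between 47.7% and 55.1% of WT. Arrays of a genotype were close for AT1G04040, with 1269 and 1372 in vip3, against 2626 and 2651 in WT.

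Regulatory and signalling families were represented by 9 genes, with ratios from 1.71 to 2.57 and a median log2 fold change of -1.15, and 8 were called lower. Among genes of DNA-binding types, AT1G07050, which encodes a CCT-motif protein of the kind found in CONSTANS, had 223 and 210.2 in vip3, against 574.5 and 816 in WT. AT1G14580, a C2H2 zinc-finger gene, had 101 and 59.3 in vip3, against 296 and 255 in WT, and AT1G64380, a gene of the AP2/ERF type, had 188 and 169 in vip3, against 352 and 325 in WT. The first 2 genes were uneven within a genotype, AT1G07050 between the WT arrays and AT1G14580 between the vip3 arrays, yet the genotypes remained apart by the selection. Kinase genes were AT4G23050, with a PAS domain, AT1G33260, AT5G01950, a leucine-rich repeat kinase gene, and AT3G61160 of the shaggy-like type. AT4G23050 had 111 and 97.9 in vip3, against 297.5 and 259 in WT, and AT1G33260 had 112 and 63.2 in vip3, against 198.5 and 199 in WT. The other kinase genes, AT5G01950 and AT3G61160, had vip3 means of 48.1% and 49.6% of WT. AT1G33600 encodes a leucine-rich repeat protein and had 677 and 549.5 in vip3, against 1161 and 1527 in WT. Its neighbour AT1G33590 overlapped between the genotypes, with 3175.5 and 3069 in vip3, against 2944 and 3500.1 in WT. AT4G16146 encodes a small protein of the cAMP-regulated phosphoprotein type and had 493 and 447 in vip3, against 968 and 1128 in WT.

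Genes for membrane transport were few. Beside AT3G23550 they comprised a further MATE gene, AT1G71140, with 78.1 and 68.9 in vip3, against 199.9 and 197 in WT. The sugar-transporter gene AT1G54730 had 158 and 147 in vip3, against 336 and 286 in WT. AT1G08350, an endomembrane-protein gene, had 128 and 109.6 in vip3, against 235 and 255 in WT. All 4 were called lower, and the arrays of a genotype lay within 1.3-fold of each other except in vip3 for AT3G23550. Families that act on RNA or DNA or belong to protein synthesis came to 5 genes, all called lower, with ratios between 1.73 and 2.15. AT5G48730 and AT2G41080 encode pentatricopeptide repeat proteins, which bind RNA in plastids and mitochondria, and had vip3 means of 43% and 42.9% of WT. AT1G23410, which encodes ubiquitin fused to a ribosomal protein, had 167.5 and 184 in vip3, against 396.5 and 424 in WT. AT5G57970, a DNA glycosylase gene, had 51.4 and 64.4 in vip3, against 156 and 125 in WT, and AT5G59240, a gene of the ribosomal protein S8e family, had 68.2 and 83.2 in vip3, against 175 and 144 in WT. AT5G57970, AT2G41080 and AT5G59240 differed between the arrays of both genotypes. Outside these groups stood 3 genes, also called lower. AT3G20370 encodes a TRAF-like protein and had 96.6 and 78.1 in vip3, against 228 and 253 in WT. AT3G28220, of the same family, had 1752.5 and 1207 in vip3, against 4318 and 3746 in WT, with uneven vip3 arrays. AT2G24040 encodes a small membrane protein of a family responsive to cold and salt, and had 313 and 253 in vip3, against 540.2 and 558 in WT.

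**Figure D3:**
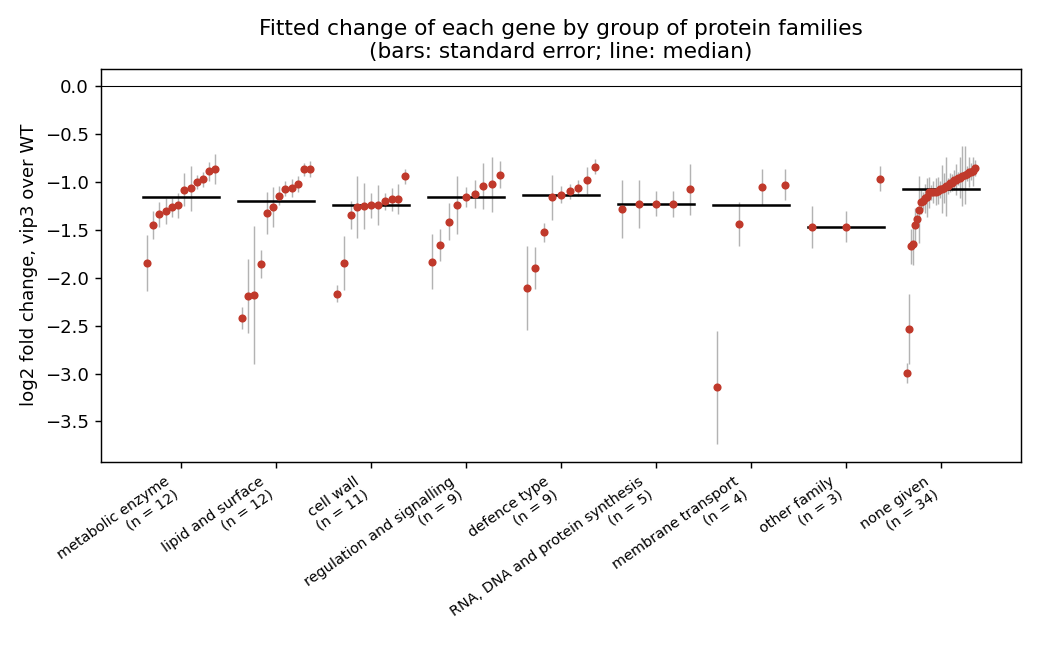
Log2 fold change of vip3 over WT (vertical axis) with its standard error for each of the 99 genes, by group of protein families, with a line at the median of each group. The medians of the 7 named groups of at least 4 genes lie between -1.24 and -1.13, and the lowest points are AT3G23550 at -3.15 among the transport genes and AT1G19960 at -2.99 among genes with no family given.

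No family is given here for 34 genes, of which 30 were called lower. Their ratios ran from 1.7 to 7.30 and their median log2 fold change was -1.08. After AT1G19960 the widest gap was that of AT5G57760, with 31.3 and 41.4 in vip3, against 273 and 160 in WT, and this gene had the widest difference between WT arrays among the 99 genes, 1.71-fold. AT5G01790 had 199 and 140.1 in vip3, against 561 and 505 in WT. AT1G76240 had 180.4 and 129 in vip3, against 567 and 402 in WT. Both were higher on the array of vip3 replicate 1 than on that of vip3 replicate 2. AT1G30250 had 727 and 703 in vip3, against 1837 and 1886 in WT. AT2G25730 had 205 and 186 in vip3, against 454 and 449 in WT. These genes were even within each genotype. High signals were read from 3 further genes of this set. AT3G22240 had 5274 and 7245 in vip3, against 13200 and 13079 in WT, and AT1G09310 had 6929 and 7516 in vip3, against 13225 and 12812 in WT. AT1G25275 had 2788 and 2845 in vip3, against 5386 and 5589.5 in WT. In AT3G22240 the vip3 arrays stood apart by more than 1.3-fold, while AT1G09310 and AT1G25275 were even on both sides.

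The other 25 genes of this set had vip3 means between 36.1% and 54% of their WT means. They were AT3G44450, AT2G15830, AT5G55620, AT3G13440, AT3G27210, AT1G21670, AT4G14020, AT3G17350, AT1G13650, AT1G66820, AT4G16850, AT1G10990, AT1G11440, AT1G30260, AT4G28740, AT1G12845, AT4G17140, AT3G48490, AT5G28220, AT2G38465, AT5G23460, AT1G62480, AT3G02900, AT3G50350 and AT2G42040. AT3G44450 was the lowest of them relative to WT, with 768 and 667 in vip3, against 2384 and 1593 in WT, and its WT arrays were unequal. The gene table also lists AT1G30260 as AGL79, a name that would make it a MADS-box gene, and since this was not checked here no family is given to it.

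Within a genotype the signals of the 99 genes were usually close. The higher array exceeded the lower by a median of 1.13-fold in vip3 and 1.09-fold in WT. Over all probe sets, dim ones included, the median absolute log2 difference was 0.22 between the vip3 arrays and 0.20 between the WT arrays. The rule set the lower WT against the higher vip3 signal, which disfavours wide differences within a genotype. Closeness of arrays, here and for single genes above, is thus partly a property of the selection. The vip3 arrays differed by more than 1.3-fold in 19 genes, by more than 1.5-fold in 8 and by more than 2-fold in 3, and the WT arrays did so in 12, 3 and 0 genes. The 3 genes with a vip3 difference over 2-fold were AT3G23550, AT5G59330 and AT5G41900. Neither vip3 array was always the lower, since replicate 1 was above replicate 2 in 62 of the 99 genes in vip3 and in 51 in WT.

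The bounds cut through a continuous range. Just inside the ratio of 1.7 were AT3G61610, AT1G20030 and AT2G03980, the last described above among the GDSL lipase genes. AT3G61610 had 169.8 and 150.1 in vip3, against 291 and 289 in WT. AT1G20030 had 601 and 616 in vip3, against 1049.9 and 1127 in WT. Just outside it stood 3 locus-named genes that are not among the 99. AT3G62810 had 286 and 269 in vip3, against 486 and 503 in WT. AT5G65880 had 346 and 338 in vip3, against 587 and 660.3 in WT. AT3G09540 had 178 and 132 in vip3, against 300.3 and 328 in WT. The ratios were 1.703 and 1.704 inside the bound and between 1.688 and 1.699 outside it. Just inside the WT minimum were AT2G15830 (57 and 45.7 in vip3, against 152 and 102 in WT), AT3G23550 and AT4G11290. Just outside it were AT4G12540 (44.3 and 32.5 in vip3, against 99.1 and 102 in WT), AT5G35480 (12.5 and 18.7 in vip3, against 108.5 and 98 in WT) and AT5G64110, given above.

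Only 2 of the 99 genes were read by a further probe set named for the locus. AT4G24350 was read by its own probe set (390.4 and 323 in vip3, against 979.5 and 819 in WT) and by a probe set shared with AT4G24340, which had 365 and 320.4 in vip3, against 1351.5 and 1088 in WT. Both probe sets kept the genotypes apart in the same direction, and the shared probes cannot assign the larger gap to either locus. AT4G17140 was read by 3 probe sets. The one that met the thresholds had 307 and 299.5 in vip3, against 566 and 629.5 in WT, a second had 112 and 127 in vip3, against 186 and 238 in WT, and the remaining one had 25.4 and 41.7 in vip3, against 63.4 and 40.8 in WT. On this last, dim probe set the genotypes overlapped. The log2 fold changes of the 3 probe sets were -0.98, -0.82 and -0.64.

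**Figure D4:**
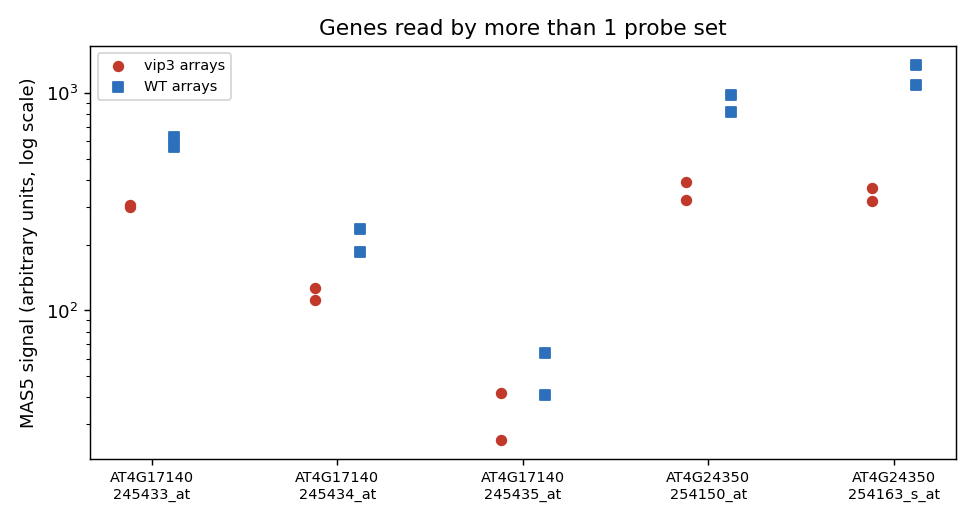
MAS5 signal (vertical, log scale, arbitrary units) of every probe set named for AT4G17140 and AT4G24350, with vip3 arrays as red circles and WT arrays as blue squares. The vip3 points lie below the WT points except for the dimmest probe set of AT4G17140, where 41.7 in vip3 exceeds 40.8 in WT.

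Position in the genome was not used in the choice of the genes. Chromosome 1 held 33 of the 99 genes (2.12% of its 1560 locus-named probe sets whose WT signals reached the minimum), chromosome 2 held 8 (0.921% of 869), chromosome 3 held 20 (1.63% of 1229), chromosome 4 held 16 (1.92% of 832) and chromosome 5 held 22 (1.51% of 1453). A single pair of the 99 genes was adjacent, AT1G30250 and AT1G30260. AT1G30260 had 545 and 554.5 in vip3, against 1085 and 1173 in WT, so that both genes of the pair were even within each genotype, at 38.4% and 48.7% of WT. The gene before the pair, AT1G30240, had 166 and 129 in vip3, against 171 and 219 in WT, a log2 fold change of -0.41. Its vip3 signals were also below both WT signals, and it was not called.

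Of 109 adjacent protein-coding genes with a named probe set that were not among the 99, 3 were called lower in vip3 (2.75%, where 5.07% of all probe sets were) and 3 higher (2.75%, where 4.73% of all probe sets were), and their median log2 fold change was -0.01. The 99 genes were left out of the 109 but count among all probe sets, so nothing is read from these shares. The 3 lower neighbours were AT5G62350, AT1G12850 and AT1G33265. AT5G62350 lies beside the pectin methylesterase inhibitor gene AT5G62360 and had 6312.5 and 5582 in vip3, against 9815 and 8608 in WT. AT1G12850 lies beside AT1G12845 and had 779 and 781 in vip3, against 1207 and 1095 in WT. AT1G33265 lies beside the kinase gene AT1G33260 and had 312 and 345 in vip3, against 507 and 559 in WT. The log2 fold changes of these 3 neighbours were -0.63, -0.56 and -0.70. They are not set against those of the 99 genes, whose smallest size is bounded by the selection. The higher neighbours were AT5G01800 beside AT5G01790, AT3G50340 beside AT3G50350 and AT1G10980 beside AT1G10990. AT1G10980 had 136 and 132 in vip3, against 46.9 and 57.7 in WT, the opposite direction to AT1G10990 (56.7 and 65 in vip3, against 141 and 111 in WT). Beside AT4G29610, of the cytidine deaminase family, the neighbours AT4G29600, AT4G29620, AT4G29630 and AT4G29640 gave signals of at most 42.4 on any array.

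**Figure D5:**
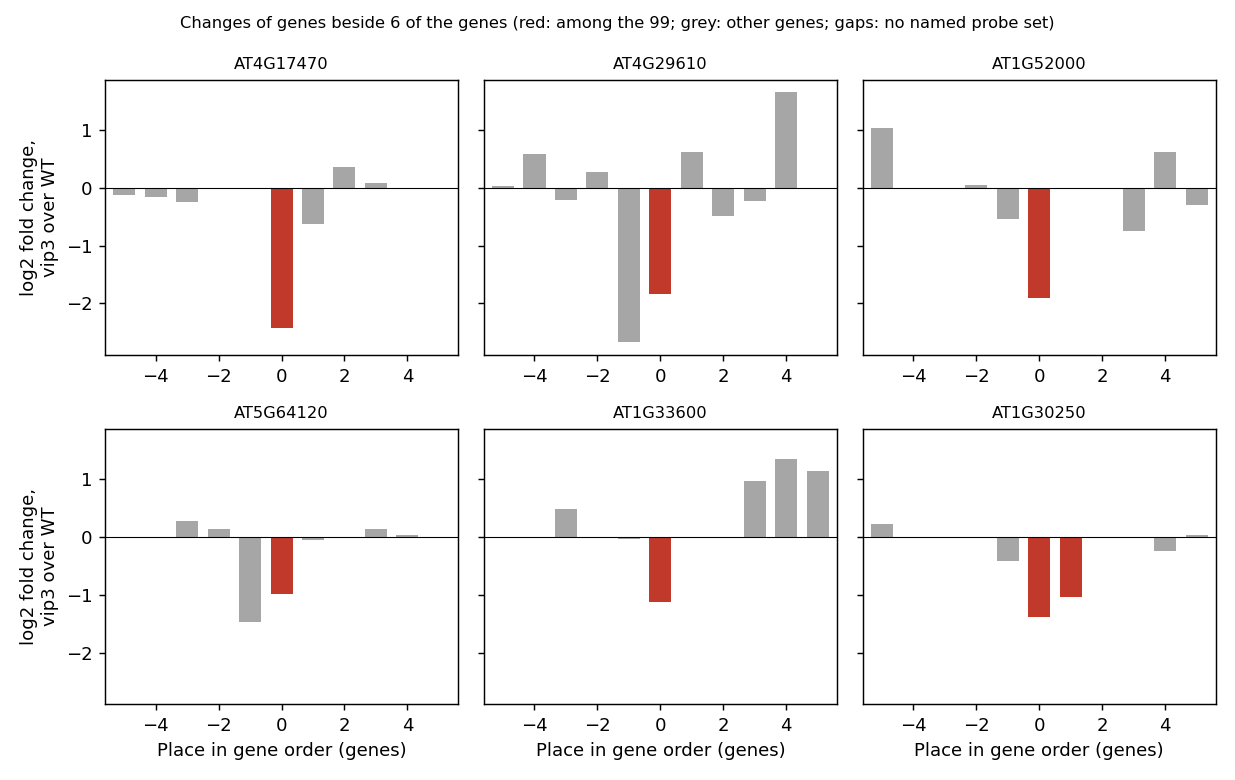
Log2 fold change of vip3 over WT (vertical axis) of genes up to 5 places on either side (horizontal axis, place in gene order) of 6 of the 99 genes, with the 99 genes in red, other genes in grey and gaps where a gene has no named probe set. Only AT1G30250 has an adjacent bar in red, and the bar of -2.67 before AT4G29610 belongs to AT4G29600, whose signals were 1.9 and 2.8 in vip3 and 8.1 and 26.7 in WT.

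Markers of shoot tissue and of other cell types were read on the same arrays. Of 6 leaf mesophyll genes, 4 had a named probe set (RCA, LHCB4.1, LHCB4.2 and PSAE-1), and their summed signal was 75169 and 82662 in vip3, against 79117.5 and 75427 in WT, so that the genotypes overlapped. Of 5 root genes 3 were measured, with a summed signal of 2741 and 3327 in vip3, against 4868 and 5788 in WT. Nearly all of this sum came from PYK10, a beta-glucosidase gene of roots and lower stems (2687 and 3228 in vip3, against 4739 and 5739 in WT), whereas the root-hair genes EXPA7 and EXPA18 had 27.2 and 42.8 (EXPA7) and 26.7 and 56.1 (EXPA18) in vip3, against 57.5 and 40.2 (EXPA7) and 71.6 and 9.1 (EXPA18) in WT, and overlapped. The flower and anther list was read by A9 alone (39.6 and 22.6 in vip3, against 16.3 and 4.9 in WT), the senescence list by WRKY53 alone (231 and 133 in vip3, against 87.5 and 205 in WT), and the seed list by no named probe set. PYK10 moved in the same direction as the 99 genes, and its part in their signals was not tested.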

How the data were processed

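Total RNA of vip3 and WT shoots was hybridised to 4 ATH1 arrays. The deposited intensity values are linear signals, for which the authors used the MAS5 algorithms (background and mismatch correction, scaling of each array). The genome build behind them was not given in the sources used here, nor was the version of the software. Low values have large relative errors. Array medians lay between 172 and 176.

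The 64 control probe sets were left out. For the other 22746 probe sets, log2 signals with no offset were fitted in limma 3.58.1 (lmFit, eBayes, R 4.3.3), taking WT from vip3. The prior variance followed the mean signal, and the moderated tests had 7.5 degrees of freedom in total. Benjamini-Hochberg adjustment ran over all 22746 p-values, with a call at an adjusted p under 0.05. The number of arrays limits the precision, and with 2 against 2 no permutation test of a single gene can reach that threshold.

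Names came from GEO's platform annotation, where 13513 had 1 gene symbol, and matched to a RefSeq gene table of TAIR10.1, used only for names and gene order. The 99 genes, the marker lists and the tests were chosen with earlier results of these data known, and groups of families were set once the genes were known. Of the 99 genes 65 were given a family from background knowledge. The rule for detailed values took the 25 genes with the highest ratio of lower WT to higher vip3 signal, up to 4 more of each group, adjacent genes, genes at the bounds and genes with a further probe set. Alternatives were an offset of 16, quantile normalization, a replicate block, a constant prior variance, a filter on the dimmest 40% of probe sets, other bounds and each array left out. Promoter motifs and annotated product groups were planned but not run, since no promoter or product table was used here. No sequence is printed.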

Additional observations from a re-analysis of the deposited data

Results flagged for a closer look

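A control probe set for the 25S ribosomal RNA, which belongs to none of the comparisons, had 223.5 and 321 in vip3, against 148 and 138 in WT, a ratio of means of 1.91. Of the 64 control probe sets 29 were higher on both vip3 arrays than on both WT arrays and 1 was lower. The share of the other 22746 probe sets separated in this way was not computed, so nothing is read from these counts. The part of these controls in the signals of the 99 genes was not tested.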

How the results depend on the processing

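The sign of the 99 fold changes is fixed by the selection and is no sign of stability. Their median of -1.15 was between -1.17 and -1.09 under the alternatives, with -1.17 to -1.12 when an array was left out. The counts of calls moved more. Over the whole array 1153 probe sets were called lower by limma, against 183 at the thresholds of the methods, 0 with a constant prior variance (1916 at an unadjusted p under 0.05), and 271 to 600 with an array left out. Of the 99 genes 92 were called, 0 with a constant prior variance (98 unadjusted) and 53 to 70 with an array left out, namely 54 without vip3 replicate 1, 53 without vip3 replicate 2, 66 without WT replicate 1 and 70 without WT replicate 2. The thresholds of the methods, which the study applied after GCRMA and not to MAS5 signals, are stricter by construction. For the other settings the cause was not tested. The rule found 186 genes at a ratio of 1.5, 39 at a ratio of 2 and 158 to 184 with an array left out, the bounds then being easier to meet.

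Arrays with the same number deviated from their genotype means with a correlation of -0.04, so that the numbers were not taken to pair them. A replicate block gave 1218 calls over the array and 91 among the 99 genes, 90 of them among the 92. For the 25 genes with the widest gap, 7 alternatives gave 175 fold changes. Of these 6 moved by more than the spread between a gene's own arrays, all with the offset. This spread can be smaller than the SE, as in AT5G07870 (-1.26 to -1.13, SE 0.21). A replicate block cannot move the fold change of 2 against 2 arrays. Leaving out an array moves it only by part of the difference between arrays of a genotype. Fold changes that stayed under these settings are therefore no sign of stability. Promoter motif alternatives were not run. Low signal limits what can be read for the 19 genes with a mean WT signal under 200.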
